A study of Mus musculus with 7 samples.

Results

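The genes described here are 9 members of the CC chemokine system. They comprise 7 inflammatory ligands (*Ccl2*, *Ccl3*, *Ccl4*, *Ccl5*, *Ccl7*, *Ccl8* and *Ccl12*) and 2 receptors (*Ccr1* and *Ccr2*). They were chosen by symbol, and each had 1 entry among the 38026 genes of the deposited table. All 9 were expressed well enough to be tested, as were 21322 genes in all.

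The data came from subcutaneous (s/c) tumors of mouse pancreatic ductal adenocarcinoma (PDA), grown in C57BL/6 mice and harvested 2 weeks after inoculation. The PDA cells were the 1242 line, which was derived from a KPC mouse tumor. All cells had been transduced with Cas9 and a guide RNA, which was a scrambled guide in 4 tumors (sgScramble, replicates 1 to 4) and a guide against *Krt19*, the gene of a keratin of epithelial cells, in 3 tumors (sgKrt19, replicates 5, 6 and 8). The comparison asks how editing *Krt19* in the cancer cells alters gene expression in the whole tumor, in which the host cells were unedited in both groups. The methods describe both polyclonal edited lines and single-cell clones, and neither they nor the labels say which of these, or which *Krt19* guide, gave the sequenced tumors.

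Values are normalized read counts, that is, reads per gene divided by a size factor for each library. Libraries held 40781199 to 44972100 reads, and 3 reads corresponded to a value of 2.74 to 3.47. *Krt19* itself averaged 23053 ± 4392 (SD, n = 4) in sgScramble tumors and 2012 ± 434 (SD, n = 3) in sgKrt19 tumors. Skeletal muscle transcripts were high in all sgKrt19 tumors and, to a smaller extent, in sgScramble tumor 3. The replicates are separate tumors of edited cells from a single starting line, so p-values measure the spread between these tumors. In whole-tumor RNA, fewer cells of a type and less RNA per cell cannot be told apart.

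CC chemokines are small secreted proteins that direct the migration of leukocytes. They bind G protein-coupled receptors, which signal through Gi proteins and phosphoinositide 3-kinase to the Rac-dependent cytoskeleton. *Ccl2*, *Ccl7*, *Ccl8* and *Ccl12* encode the monocyte chemoattractant proteins, several of which act through CCR2, the receptor that draws classical monocytes out of the bone marrow and into inflamed tissue. *Ccl3* and *Ccl4* encode macrophage inflammatory proteins, and CCL3 is a ligand of CCR1. *Ccl5* encodes RANTES, which acts on CCR1 and CCR3. In inflamed tissue these last 3 ligands are made by activated T cells, natural killer (NK) cells and myeloid cells.

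The family takes its name from a pair of adjacent cysteines near the amino terminus. All 7 ligand genes lie on chromosome 11, and in each the annotated coding sequence holds 1 such pair of adjacent cysteine codons. The stretches of 36 coding bases around the pair are shown for 6 of the ligands, to let them be compared around these shared codons. They were read 5′ to 3′ on the coding strand of the GENCODE M21 transcripts (build GRCm38), all lie in the second coding exon, and capitals mark the cysteine codons.
Ccl2 (chr11:82036491-82036526, plus strand): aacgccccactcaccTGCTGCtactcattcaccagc
Ccl7 (chr11:82046523-82046558, plus strand): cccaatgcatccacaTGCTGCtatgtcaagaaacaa
Ccl8 (chr11:82116041-82116076, plus strand): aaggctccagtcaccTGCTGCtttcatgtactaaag
Ccl12 (chr11:82102619-82102654, plus strand): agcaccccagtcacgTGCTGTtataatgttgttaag
Ccl4 (chr11:83663467-83663502, plus strand): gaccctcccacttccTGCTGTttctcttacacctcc
Ccl5 (chr11:83529227-83529262, minus strand): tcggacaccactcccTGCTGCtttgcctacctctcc
Of the ligands shown, the codons are TGC TGC in 4 and TGC TGT in *Ccl4* and *Ccl12*. Over whole coding sequences, *Ccl2* and *Ccl7* shared 72.1% of aligned bases and *Ccl3* and *Ccl4* shared 71.1%. No stretch of 76 bases, the read length, was common to a ligand or *Ccr1* and any other gene. *Ccr2* shared 77 of its 6733 such stretches (1.14%) with another gene.

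*Ccl3*, *Ccl4* and *Ccl5* were 4.50 to 5.43 times higher in sgKrt19 tumors than in sgScramble tumors. Of the monocyte chemoattractants, *Ccl8* rose by a smaller factor of 1.53, while *Ccl2*, *Ccl7* and *Ccl12* did not pass the test, and neither did the receptors *Ccr1* and *Ccr2*. In all, 4 of the 9 genes (44.4%) were called higher and 0 lower in sgKrt19 tumors by limma at an adjusted p under 0.05. Over all genes tested, 34.0% were called, 17.9% higher and 16.0% lower. edgeR and DESeq2 also called 4 of the 9 genes, against 17.3% and 19.3% of all genes as higher. The values of sgKrt19 tumors lay above those of all sgScramble tumors for 3 of the 9 genes, against 21.7% of all genes tested.

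**Figure D1:**
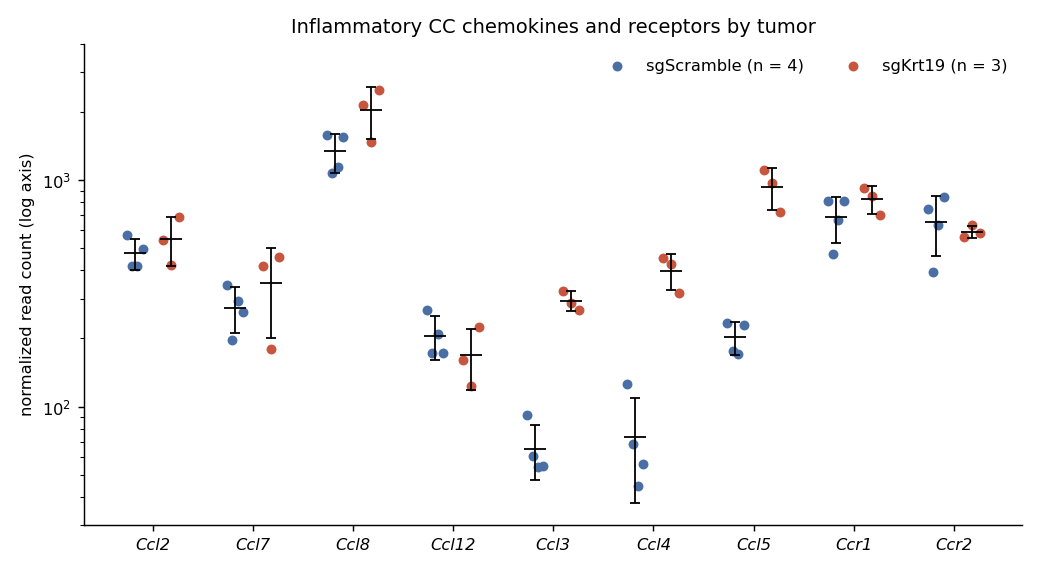
Normalized read counts (log axis) of the 9 genes in each sgScramble tumor (blue, n = 4) and each sgKrt19 tumor (red, n = 3), with bars at the mean ± SD. The groups are apart for Ccl3, Ccl4 and Ccl5 and overlap for the other 6 genes.

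*Ccl3* (ENSMUSG00000000982.5, chr11:83647844-83649355, GRCm38) encodes macrophage inflammatory protein 1 alpha. Its normalized read count was 92.0, 60.3, 53.9 and 54.7 in sgScramble tumors 1 to 4, and 325, 288 and 268 in sgKrt19 tumors 5, 6 and 8. The lowest sgKrt19 tumor was thus well above the highest sgScramble tumor. The means were 65.2 ± 18.1 (SD, n = 4) and 294 ± 28.9 (SD, n = 3), and the log2 fold change was 2.18 ± 0.22 (SE), with a limma adjusted p of 0.000114.

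*Ccl4* (ENSMUSG00000018930.3, chr11:83662584-83664683), its neighbour 13.2 kb away, encodes macrophage inflammatory protein 1 beta. Values were 125, 68.2, 44.8 and 55.6 in sgScramble tumors, and 454, 426 and 316 in sgKrt19 tumors. sgScramble tumor 1 held the most *Ccl3* and *Ccl4* of its group, but remained below every sgKrt19 tumor for both genes. The *Ccl4* means were 73.5 ± 35.9 (SD, n = 4) and 399 ± 73.0 (SD, n = 3), and the log2 fold change was 2.52 ± 0.31 (SE), with a limma adjusted p of 0.000362.

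*Ccl5* (ENSMUSG00000035042.2, chr11:83525778-83530518) was the most abundant of these 3 ligands. Its values were 233, 177, 171 and 230.0 in sgScramble tumors, and 1105, 974 and 725 in sgKrt19 tumors. The groups did not overlap, and the means of 203 ± 33.5 (SD, n = 4) and 935 ± 193 (SD, n = 3) differed by 2.19 ± 0.18 (SE) on the log2 scale, with a limma adjusted p of 5.02e-05. *Ccl3*, *Ccl4* and *Ccl5* also passed the test for a fold change above 1.5, which 3.41% of all genes passed as higher. All 3 kept their calls under each of the 17 alternative settings.

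The monocyte chemoattractants lie in a separate cluster, whose last gene, *Ccl1*, ends 1.22 Mb before *Ccl5*. *Ccl8* (ENSMUSG00000009185.2, chr11:82115185-82116799) had values of 1591, 1077, 1145 and 1549.7 in sgScramble tumors, and 2149, 1472 and 2517 in sgKrt19 tumors. The groups overlapped, since sgKrt19 tumor 6 was below sgScramble tumors 1 and 4. The means were 1341 ± 267 (SD, n = 4) and 2046 ± 530.0 (SD, n = 3), and the log2 fold change was 0.60 ± 0.20 (SE), with a limma adjusted p of 0.0441. The call was lost under 7 of the 17 alternatives. Among them were scaling by library size alone (0.38, adjusted p = 0.158) and leaving out sgScramble tumor 2 (0.50), sgScramble tumor 3 (0.53), sgKrt19 tumor 5 (0.54) or sgKrt19 tumor 8 (0.43), with limma adjusted p-values of 0.0850 to 0.157.

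*Ccl2* (ENSMUSG00000035385.5, chr11:82035571-82037453), the principal CCR2 ligand, had values of 574, 417, 417 and 498 in sgScramble tumors, and 546, 422 and 690.0 in sgKrt19 tumors. The ranges overlapped, and the means were 477 ± 75.3 (SD, n = 4) and 553 ± 134 (SD, n = 3). The log2 fold change was 0.20 (95% interval −0.21 to 0.61, limma adjusted p = 0.428). Scaled by library size alone it was −0.019, so its direction depended on the scaling. It was 0.023 without sgKrt19 tumor 8 and 0.38 without sgKrt19 tumor 6.

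*Ccl7* (ENSMUSG00000035373.2, chr11:82045712-82047525) encodes another monocyte chemoattractant. Its values were 346, 197, 292 and 262 in sgScramble tumors, and 416, 180.0 and 457 in sgKrt19 tumors. sgKrt19 tumor 6 was the lowest of all 7 tumors, and the other sgKrt19 tumors were the highest. The log2 fold change was 0.27 (95% interval −0.42 to 0.97, limma adjusted p = 0.515). Without sgKrt19 tumor 6 it was 0.70 (limma adjusted p = 0.0445), so this single tumor decided the call. It was 0.028 without sgKrt19 tumor 8, 0.095 without sgKrt19 tumor 5, 0.12 without sgScramble tumor 2 and 0.058 when scaled by library size alone.

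*Ccl12* (ENSMUSG00000035352.3, chr11:82101845-82103400), a CCR2 ligand of the mouse, was the only ligand of the 7 with a lower value in sgKrt19 tumors, except that *Ccl2* was also lower when scaled by library size alone. Values were 268, 173, 208 and 173 in sgScramble tumors, and 161, 123 and 224 in sgKrt19 tumors. The groups overlapped through sgKrt19 tumor 8. The log2 fold change was −0.30 (95% interval −0.82 to 0.22, limma adjusted p = 0.342), and it was −0.092 without sgKrt19 tumor 6 and −0.52 without sgKrt19 tumor 8.

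Ratios between neighbouring monocyte chemoattractants within a tumor were also compared. The log2 ratio of *Ccl2* to *Ccl8* averaged −1.48 in sgScramble tumors (SD 0.11, n = 4) against −1.88 in the sgKrt19 group (SD 0.089, n = 3), without overlap. The log2 ratio of *Ccl2* to *Ccl12* averaged 1.22 (SD 0.23) against 1.72 (SD 0.083), also without overlap. Each of these differences had the smallest p that 4 against 3 tumors allow in an exact permutation test (two-sided, 0.0571, or 0.147 adjusted over the 18 pairs examined), so no such difference could reach 0.05. The log2 ratio of *Ccl2* to *Ccl7* averaged 0.81 (SD 0.25) against 0.74 (SD 0.44) (exact permutation p = 0.857).

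*Ccr1* (ENSMUSG00000025804.5, chr9:123962124-123968692) encodes a receptor of CCL3 and CCL5 found on monocytes, macrophages and neutrophils. Its values were 807, 471, 668 and 807 in sgScramble tumors, and 926, 851 and 699 in sgKrt19 tumors. The highest values were in sgKrt19 tumors 5 and 6, but sgKrt19 tumor 8 was within the sgScramble range. The log2 fold change was 0.28 (95% interval −0.15 to 0.72, limma adjusted p = 0.274), and it was 0.11 without sgScramble tumor 2 and 0.069 when scaled by library size alone.

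*Ccr2* (ENSMUSG00000049103.14, chr9:124101950-124113557) had values of 744, 394, 636 and 845 in sgScramble tumors, and 559.5, 631 and 584 in sgKrt19 tumors. All sgKrt19 tumors were within the sgScramble range. The log2 fold change was −0.093 (95% interval −0.59 to 0.41, limma adjusted p = 0.771), and it was 0.048 without sgScramble tumor 4, −0.32 without sgScramble tumor 2 and −0.31 when scaled by library size alone. Within a tumor, the log2 ratio of *Ccr1* to *Ccr2* averaged 0.095 in sgScramble tumors (SD 0.13) against 0.47 in the sgKrt19 group (SD 0.24), without overlap (exact permutation p = 0.0571, adjusted 0.147).

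The 95% intervals of the receptors ended at 0.72 for *Ccr1* and 0.41 for *Ccr2*, whereas those of the 3 ligands began at 1.70 (*Ccl3*), 1.82 (*Ccl4*) and 1.78 (*Ccl5*).

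The make-up of the ligand reads shifted accordingly. *Ccl3*, *Ccl4* and *Ccl5* together held 11.6% to 14.1% of the summed normalized reads of the 7 ligands in sgScramble tumors, and 25.2% to 43.4% in sgKrt19 tumors. The sum itself was 2169 to 3230 in sgScramble tumors and 3886 to 5196 in sgKrt19 tumors. *Ccl8* remained the largest share, at 49.1% to 54.9% in sgScramble and 37.9% to 48.4% in sgKrt19 tumors. *Ccl12*, the smallest share of the monocyte chemoattractants, held 6.11% to 8.93% and 3.12% to 4.30%.

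**Figure D2:**
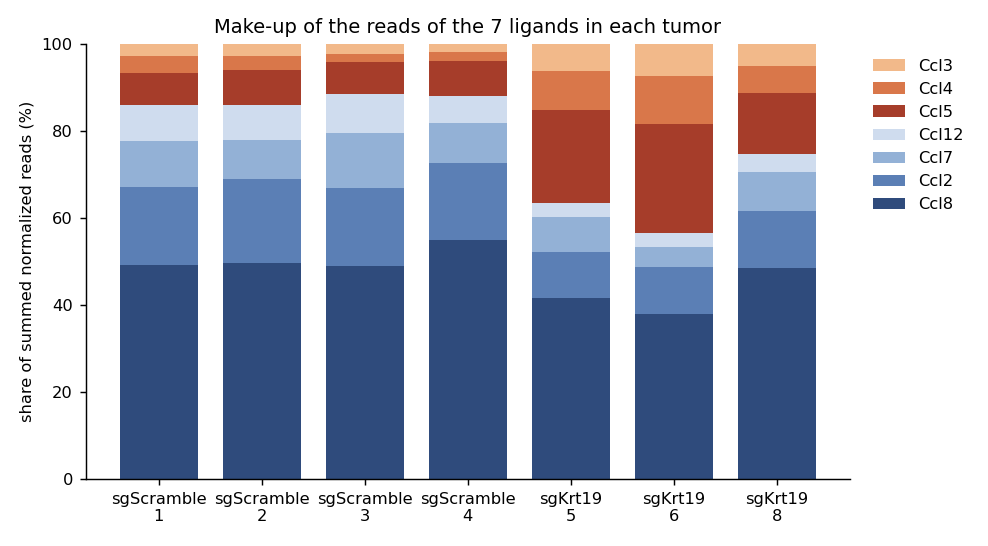
Share (%) of the summed normalized reads of the 7 ligands held by each ligand in each tumor, as stacked bars. Ccl3, Ccl4 and Ccl5 (red shades) take 11.6% to 14.1% of the bar in sgScramble tumors and 25.2% to 43.4% in sgKrt19 tumors.

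To set levels of different genes side by side, normalized reads were divided by the exon length of each gene in kb. In sgScramble tumors *Ccl8* had the highest level per kb, 2624 ± 523 (SD, n = 4), clear of *Ccl2* at 419. *Ccl12* (383), *Ccl7* (342), *Ccr1* (243), *Ccl5* (211), *Ccl4* (111), *Ccr2* (96.8) and *Ccl3* (85.1) followed, and from *Ccl2* down each gene overlapped the next over the tumors. In sgKrt19 tumors *Ccl8* again led, at 4004 ± 1037 (SD, n = 3) per kb. *Ccl5* was next at 974 ± 201 (SD) per kb, clear of both *Ccl8* and *Ccl4* (604), so it moved from the sixth to the second place. The order went on with *Ccl2* (486), *Ccl7* (438), *Ccl3* (383), *Ccl12* (315) and *Ccr1* (291), with each overlapping the next, and ended with *Ccr2* at 87.5 per kb, clear of *Ccr1*.

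The other genes of the family give the context. Of the other CC ligands, the table held 18 entries for 14 symbols, because *Ccl19*, *Ccl21a* and *Ccl21b* have copies on unplaced scaffolds whose reads cannot be told apart with certainty. Of these 18 entries 15 were tested, 6 were higher, for 5 symbols, and 1 was lower, with a median log2 fold change of 0.16 over the tested entries against 0.0072 over all genes tested. The largest changes were in *Ccl21a* (2.15 ± 0.46, SE), *Ccl1* (2.06 ± 0.41) and *Ccl19* (1.64 ± 0.41). *Ccl1* encodes a ligand of CCR8, and *Ccl19* and *Ccl21a* encode ligands of the lymph-node homing receptor CCR7. Their levels were low, with means of 5.82 and 28.6 for *Ccl21a*, 33.0 and 126 for *Ccl1*, and 16.0 and 56.6 for *Ccl19*. *Ccl11*, the eotaxin gene beside *Ccl7*, averaged 384 ± 142 (SD) in the control tumors, fell to 174 ± 5.94 (SD) in the edited ones, and the log2 fold change was −1.06 ± 0.26 (SE), with a limma adjusted p of 0.0111. *Ccl6* and *Ccl9*, between *Ccl5* and *Ccl3*, had log2 fold changes of 0.16 and −0.016 and were not called (limma adjusted p = 0.576 and 0.964). Without sgKrt19 tumor 8, 4 entries of this list were called.

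Of 12 other CC receptor genes 7 were tested and 2 were higher. *Ccrl2*, which encodes a receptor-like protein that presents chemerin, averaged 70.1 ± 12.3 (SD) in the control tumors, rose to 239.9 ± 59.0 (SD) in the edited ones, and the log2 fold change was 1.75 ± 0.22 (SE), with a limma adjusted p of 0.000392. *Ccr8*, the receptor of CCL1, rose from 8.44 to 29.7 (log2 fold change 1.78 ± 0.44, SE), and it was near the filter on low values. The scavenging receptors *Ackr1* (0.71) and *Ackr2* (0.12) were not called, and *Ccr3*, with 0 to 7 reads in a library, was not tested. Without sgKrt19 tumor 6, 1 receptor of this list was called.

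**Figure D3:**
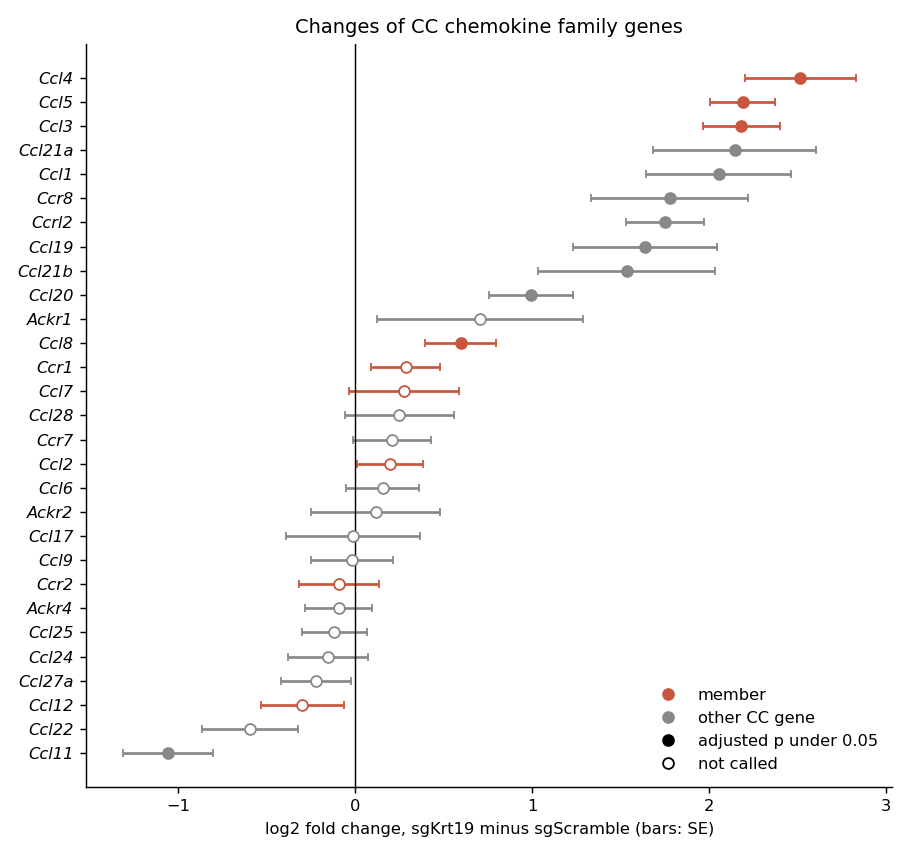
Log2 fold change (sgKrt19 minus sgScramble, with SE bars) of the 9 genes (red) and of other CC chemokine family genes that were tested and are reported here (grey, 1 entry per symbol); filled points were called by limma. Ccl4, Ccl5 and Ccl3 have the highest points, but Ccl21a and Ccl1 lie just below, with SE bars that overlap those of Ccl5 and Ccl3. Ccl8 was the only other called gene of the 9, and Ccl11 is at the bottom.

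Along chromosome 11 the changes did not follow position alone. In the cluster from *Ccl2* to *Ccl1*, 6 CC genes were tested, of which 2 were called higher (*Ccl8* and *Ccl1*) and 1 lower (*Ccl11*). The gene model of *Ccl1* spans 82176657 to 82305690, so reads counted for it could come from a wide interval. In the cluster from *Ccl5* to *Ccl4*, 3 of 5 CC genes were higher and 0 lower, with the uncalled *Ccl9* and *Ccl6* between the called genes. Within 200 kb of that cluster, 10 genes other than CC chemokines were tested, of which 4 were higher and 4 lower, with log2 fold changes from −1.42 to 1.57.

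**Figure D4:**
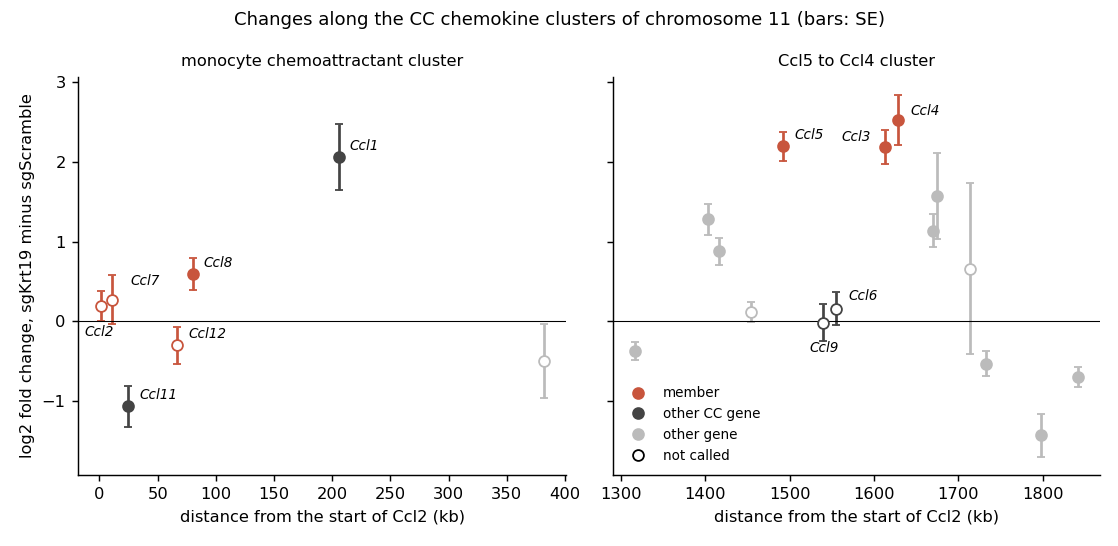
Log2 fold change (sgKrt19 minus sgScramble, with SE bars) against distance in kb from the start of Ccl2 for tested genes of both CC clusters of chromosome 11 and 200 kb around them; open points were not called. Ccl5, Ccl3 and Ccl4 lie above 2, whereas Ccl9 and Ccl6, placed between them, lie near 0.

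The 60 bases before the start sites are shown for the ligands of these clusters that RefSeq promoters (GRCm38.p6) covered, a strongly raised gene, a weakly raised gene and one that was not called. They were searched on both strands, together with the rest of a window from 250 bases before to 50 bases after the start, for GGGNNNNNCC (NF-kB), GAAANNGAAA (interferon-stimulated element), TTCNNNGAA (STAT), TGANTCA (AP-1) and TATAAA, and capitals mark a match.
Ccl3 (chr11:83649379-83649438, minus strand): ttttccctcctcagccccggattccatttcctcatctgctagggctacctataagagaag
Ccl8 (chr11:82115125-82115184, plus strand): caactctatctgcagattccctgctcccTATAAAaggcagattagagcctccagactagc
Ccl12 (chr11:82101785-82101844, plus strand): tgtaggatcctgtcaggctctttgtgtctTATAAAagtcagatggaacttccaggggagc
*Ccl8* and *Ccl12* held TATAAA 32 and 31 bases before the start, a motif in 13.6% of the 32544 promoters, and of these *Ccl8* was called and *Ccl12* was not. The *Ccl3* window held none of the 5 motifs as written. Its printed bases include tataag, which differs from TATAAA only in the last base and was not counted as a match. *Ccr1* held GGGNNNNNCC 74 bases before its start, a motif in 51.0% of promoters, and *Ccr2* held none. The other motifs were in 3.45% (GAAANNGAAA), 8.33% (TTCNNNGAA) and 7.79% (TGANTCA) of promoters. *Ccl2*, *Ccl4*, *Ccl5* and *Ccl7* were not matched.

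Genes that act downstream of CC receptors rose in part. Of 13 signalling genes 7 were higher and 1 was lower, with a median log2 fold change of 0.48. The largest increases were in *Rac2* (1.35 ± 0.15, SE), the hematopoietic Rac GTPase, *Prex1* (0.95 ± 0.16), a Rac exchange factor, and *Pik3r5* (0.79 ± 0.18), a regulatory subunit of phosphoinositide 3-kinase gamma. *Rgs2*, which dampens G protein signals, fell by 0.77 ± 0.16 (SE) on the log2 scale (limma adjusted p = 0.00545). *Rac2* is also a general leukocyte gene, and the 5 pan-leukocyte markers were all higher. Their summed normalized reads were 6762 to 9331 in sgScramble and 11694 to 15716 in sgKrt19 tumors. The part of leukocyte content in the changes of the signalling genes was not tested.

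Of 13 NF-kB and inflammatory genes, which share inducers with these chemokines, 5 were higher and 2 lower, with a median of 0.32. *Icam1*, which encodes a leukocyte adhesion molecule, rose by 1.30 ± 0.11 (SE) on the log2 scale, and the cytokine genes *Tnf* and *Il1b* rose by 1.19 ± 0.20 and 0.78 ± 0.23 (limma adjusted p = 4.99e-05, 0.00195 and 0.0246). *Nfkb1* fell by 0.53 and *Nfkbiz* fell by 0.43. *Il6*, at a mean of 17.3 and 24.3, was not called. Without sgScramble tumor 2 the list had 4 calls, and without sgKrt19 tumor 5 it had 3.

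Most markers of T cells and NK cells were higher in sgKrt19 tumors. Those of myeloid cells, which can also make *Ccl3*, *Ccl4* and *Ccl5*, are given further below. Of 11 T cell markers 10 were higher, with a median log2 fold change of 2.22, led by *Cd8b1* (3.29), *Cd8a* (3.11) and *Cd3d* (2.80), and *Cd4* was not called (0.56). Their summed normalized reads were 793 to 1412 in sgScramble tumors and 4009.6 to 7389 in sgKrt19 tumors. Of 7 NK cell markers 5 were higher, with a median of 1.17, led by *Klrk1* (1.93), *Klra8* (1.69) and *Klre1* (1.53). The NK cell markers *Ncr1* (0.81) and *Klrb1c* (1.17) were not called. Whether NK cells or other cells, such as T cells, expressed the called markers of this list was not tested. The NK cell sums were 607 to 954 and 1436 to 1789.5. *Klra4* (means of 526 and 831, log2 fold change 0.66) held the largest share of these sums. No marker of either list was at or under 3 reads in all tumors. Without sgScramble tumor 3, 3 NK cell markers were called.

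Relative to the mean of the T cell markers in the same tumor, the 3 ligands did not separate the groups. *Ccl5* exceeded that mean by 1.32 ± 0.38 (SD) on the log2 scale in sgScramble tumors, against 1.17 ± 0.22 (SD) in the sgKrt19 group, a difference of −0.15 (exact permutation p = 0.571). The difference was −0.16 for *Ccl3* (exact permutation p = 0.629) and 0.17 for *Ccl4* (exact permutation p = 0.4), and the tumors of the groups overlapped for all 3. With single tumors left out the differences were −0.30 to −0.015 for *Ccl5*, −0.39 to −0.013 for *Ccl3* and 0.038 to 0.32 for *Ccl4*. Tests this small do not show that ligands and markers changed alike. The part of T and NK cell content in the ligand changes was not tested.

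Macrophage and monocyte markers moved less. Of 15 such markers 5 were higher and 1 was lower, with a median of 0.13, led by *Fcgr1* (0.89), *Cd14* (0.62) and *C1qb* (0.57). Their sums of 38491 to 52741 and 49853 to 71342 overlapped, and 3 markers were called without sgScramble tumor 2 and 2 without sgKrt19 tumor 5. Relative to the mean of these markers, *Ccl3* was higher by 2.03 and *Ccl4* by 2.36 on the log2 scale in sgKrt19 tumors, without overlap (exact permutation p = 0.0571 each, adjusted 0.147). *Ccl8* was higher by 0.44 (exact permutation p = 0.114) and *Ccl12* lower, with a difference of −0.45 (exact permutation p = 0.229). The difference was 0.042 for *Ccl2*, 0.12 for *Ccl7*, 0.13 for *Ccr1* and −0.25 for *Ccr2*, with exact permutation p-values of 0.857, 0.8, 0.4 and 0.229. The difference for *Ccl8* was 0.22 without sgKrt19 tumor 8, and that for *Ccl12* was −0.24 without sgKrt19 tumor 6 and −0.73 without sgKrt19 tumor 8. The signs for *Ccl2* and *Ccl7* turned when single tumors were left out, to −0.18 for both without sgKrt19 tumor 8, to −0.031 for *Ccl2* without sgScramble tumor 4 and to −0.0096 for *Ccl7* without sgKrt19 tumor 5.

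**Figure D5:**
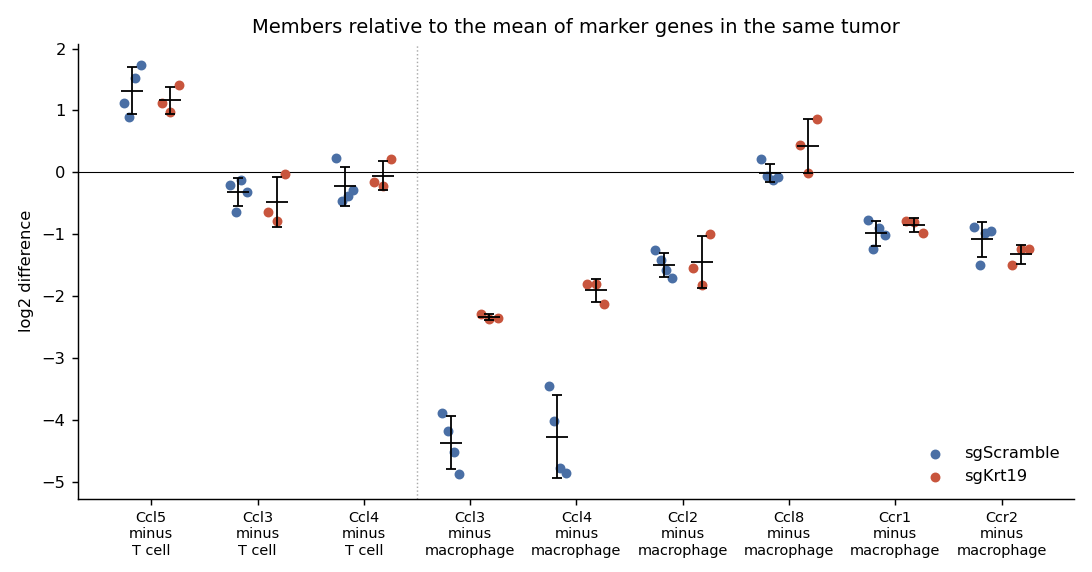
Log2 normalized reads of a gene minus the mean log2 value of T cell or macrophage and monocyte markers in the same tumor, for sgScramble (blue, n = 4) and sgKrt19 (red, n = 3) tumors, with bars at the mean ± SD. Against T cell markers the groups overlap for Ccl5, Ccl3 and Ccl4, and against macrophage markers only Ccl3 and Ccl4 are apart among the genes drawn.

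Markers of classical monocytes, the cells that CCR2 marks, went in both directions. Of 6 such markers 3 were higher, among them *Ly6c2* (2.03), and 2 were lower, among them *Chil3*, with a log2 fold change of −3.71. Their sums of 18039 to 24673 in sgScramble and 24397 to 35924 in sgKrt19 tumors were mostly *Plac8* (means of 14984 and 28119.5), and without it the sums turned, to 4613 to 6754 and 2021 to 2601. Which cells expressed *Plac8* and the other genes of this list was not tested, so neither sum measures monocyte content. Of 11 neutrophil markers 8 were tested and 6 were higher, with a median of 1.32, led by *Ltf* (a log2 fold change of 4.64), *S100a8* (from 86.7 to 242) and *S100a9* (1.44), and sums of 844 to 1856 and 5461 to 5939.8. *Ly6g* and *Camp*, defining neutrophil genes, had too few reads to be tested. *Ltf*, which epithelial glands also make, held most of the sgKrt19 sum. *Ccr1* exceeded the mean of the neutrophil markers by 3.10 ± 0.28 (SD) in sgScramble tumors, against 1.88 ± 0.21 (SD) in the sgKrt19 group (exact permutation p = 0.0571, adjusted 0.147). That mean was taken over the 8 tested markers including *Ltf*, and the ratio without *Ltf* was not examined.

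Markers of other cells were as follows. Of 6 dendritic cell markers tested 3 were higher, *Xcr1* (1.55), *Clec9a* (0.88) and *Itgax* (0.55), with sums of 1089.5 to 1478 and 1531 to 2151, and 1 call was left without sgScramble tumor 2 or sgKrt19 tumor 6. Of 6 eosinophil and mast cell markers tested only *Siglecf* (1.32) was called, *Prg2* and *Epx* had at most 3 reads in every tumor, and 4 were called without sgScramble tumor 3. Of 6 endothelial markers 4 were higher, led by *Kdr* (0.73), *Egfl7* (0.69) and *Tie1* (0.62), with 2 calls without sgScramble tumor 2 and 1 without sgKrt19 tumor 5 or 8. None of the 11 fibroblast entries and neither of the 2 B cell markers tested was called by limma, but 1 B cell marker was without sgScramble tumor 2 and 1 fibroblast entry without sgScramble tumor 1. Of 7 epithelial markers 4 were higher, led by *Krt18* (0.97), *Muc1* (0.91) and *Krt8* (0.91), while *Cldn4* (−1.23), *Krt7* (−1.03) and *Epcam* (0.064) were not called.

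All 9 skeletal muscle markers were higher in sgKrt19 tumors, with a median log2 fold change of 7.30, led by *Myh1* (8.96), *Myh4* (8.23) and *Ckm* (8.09). Their sums were 63.2 to 2197 in sgScramble tumors and 18552 to 26436 in sgKrt19 tumors. Muscle RNA thus followed the groups, and its part in the values of the 9 genes cannot be told apart from that of the guide.

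The genes whose values over the 7 tumors were most like those of each gene were found by the root mean square of the difference in log2 value after centring each gene on its mean, among 12578 candidates with a mean of at least 100. As all share the same libraries and group difference, this describes likeness in these tumors only. *Klrc2* was nearest to *Ccl5* (0.17) and to *Ccl3* (0.18), followed by *Napsa* (0.20) for *Ccl5* and *Klrk1* (0.18) for *Ccl3*. Which cells expressed these genes was not tested. *Ccl4* was nearest to *Ly6a* (0.17) and *Klrd1* (0.22). The monocyte chemoattractants had other neighbours, *Cep85* (0.097) and *Zup1* (0.11) for *Ccl2*, *Lrrc61* (0.17) and *Rarres2* (0.18) for *Ccl7*, *Clec10a* (0.14) and *Esm1* (0.15) for *Ccl8*, and *Lbp* (0.17) for *Ccl12*. *Ccr1* was nearest to *Cd200r1* (0.065) and *Emb* (0.067), and *Ccr2* to *Ptpro* (0.12) and *Tfec* (0.16). The distances were not scaled by how much each gene varied, so they do not rank likeness between genes.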

How the data were processed

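RNA from 7 s/c tumors was sequenced by the study as single reads of 76 bp. The deposited values are a signal: reads per gene that the authors had divided by a size factor for each library, with no unit given in the labels. Whole reads could be recovered for 100% of values (within 0.01 reads), and 0 value columns were left without a sample. The processing notes name mm10. The aligner, the counting program and the annotation are not given in the sources used here. Values with 1 added were taken to log2 and tested with limma 3.58.1 (trended variances, R 4.3.3) on genes that reached a value of 10 in 3 or more libraries, with Benjamini-Hochberg adjustment over all genes tested and a threshold of 0.05. Recovered reads were tested with edgeR 4.0.16 and DESeq2 1.42.0 as alternatives. Scripts were tested on simulated data. Other alternatives changed the pseudocount, filter, scaling, trend, fold tested or libraries. Ratios between genes and to marker means were compared by two-sided exact permutation tests over the 35 splits of 7 tumors, with scipy 1.17.1. Of the gene identifiers, 97.74% had the same version in GENCODE M21.

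The 9 genes and the 17 other gene lists were chosen with earlier results of these data known. Named from each list were at most the 3 called genes with the largest change, plus receptors and partners of the 9 genes and, for each of the 9, the 2 genes most like it. *Rgs2*, *Nfkb1*, *Nfkbiz*, *Il6*, *Cd4*, *Ncr1*, *Klrb1c*, *Klra4*, *Ly6g*, *Camp*, *Plac8*, *Cldn4*, *Krt7* and *Epcam* were named after their values were seen. A few genes that this rule would name, and 1 coding stretch, are not reported here.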

Additional observations from a re-analysis of the deposited data

Results flagged for a closer look

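Of 34 results examined over the 4 sgScramble tumors, 3 had a tumor that stood far from the others. Chance alone sets a tumor apart in this way in about 1 of 20 groups. The normalized read count of *Ccl3* in sgScramble tumor 1 was 92.0, against 60.3 in the next tumor, and leaving this tumor out changed no call of *Ccl3*. The summed normalized reads of the skeletal muscle markers in sgScramble tumor 3 were 2197, against 85.3 in the next tumor. The log2 difference between *Ccr2* and the mean of the macrophage and monocyte markers was −1.50 in sgScramble tumor 2, against −0.98 in the next tumor.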

How the results depend on the processing

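No paired analysis was possible because the groups share no replicate number. *Ccl3*, *Ccl4* and *Ccl5* kept their calls under all 17 alternatives, with log2 fold changes of 1.97 to 2.36, 2.30 to 2.81 and 1.98 to 2.36. With single tumors left out, 3 to 5 of the 9 genes were called, and the log2 fold change was 0.43 to 0.82 for *Ccl8*, 0.028 to 0.70 for *Ccl7* and −0.32 to 0.048 for *Ccr2*. *Ccl8* was also lost with limma without a trend (0.60, adjusted p = 0.0862), with the test for a fold change above 1.5 (0.60, adjusted p = 1) and with library-size scaling (0.38). Under that scaling *Ccl2* was at −0.019, and the median of all genes was −0.21, so that *Ccl2* was above it. The cause of these changes was not tested.

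Over all genes, 7240 were called, 3820 higher and 3420 lower. These counts were 4861 to 7714, 2481 to 4103 and 2232 to 3611 with single tumors left out, and the lowest of the higher calls came without sgKrt19 tumor 5 and of the lower calls without sgScramble tumor 2. They were 1336, 728 and 608 for a fold change above 1.5, and library-size scaling gave 2177 higher and 5727 lower. For a fold change above 1.5, the lists had 1 call for the other CC ligands, other CC receptors, signalling and NF-kB genes, 3 for classical monocytes and neutrophils, 2 for NK cells and leukocytes, and 0 for macrophages, dendritic cells, eosinophils and mast cells, endothelium and epithelium. Library-size scaling left 2 macrophage, 3 NK cell, 1 dendritic and 1 endothelial call. Without a trend there were 4 NF-kB, 3 macrophage and 3 NK cell calls. A minimum value of 50 left 3 CC ligands, 1 CC receptor and 0 eosinophil and mast cell markers. DESeq2 called 2 eosinophil and mast cell markers and 1 fibroblast entry. With single tumors left out, calls ranged from 4 to 7 for CC ligands, 1 to 3 for CC receptors, 3 to 7 for NF-kB, 2 to 6 for macrophages, 3 to 5 for NK cells, 0 to 1 for B cells and fibroblasts, 1 to 3 for dendritic cells, 1 to 4 for eosinophils and mast cells, and 1 to 5 for endothelium. The log2 ratio of *Ccl2* to *Ccl7* differed between groups by 0.013 without sgScramble tumor 2 and by 0.097 without sgKrt19 tumor 5, against −0.076 with all tumors. Relative to macrophage markers, *Ccl2* differed by −0.031 without sgScramble tumor 4 and −0.18 without sgKrt19 tumor 8, and *Ccl7* by −0.0096 without sgKrt19 tumor 5 and −0.18 without sgKrt19 tumor 8, and the ranges were −0.18 to 0.22 and −0.18 to 0.54. Of the 742 values under alternatives that were compared, 679 kept their direction, side of the threshold or size.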
